A study of Mus musculus with 2 samples.

Results

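The genes described here are 10 components of the NF-kB system, taken by symbol from the 27998 genes of the count tables, and all 10 had a row in both. They comprised the 5 subunits of the factor (Nfkb1, Nfkb2, Rela, Rel and Relb), 4 inhibitors or modulators (Nfkbia, Nfkbiz, Tnfaip3 and Bcl3) and Icam1, an adhesion molecule whose gene is a classical target. They were followed across 13 groups of leukocytes defined by marker transcripts.

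NF-kB is a family of dimeric transcription factors that resting cells hold in the cytoplasm through inhibitory IkB proteins. Stimulated receptors activate the IKK kinases, which mark the IkB proteins for destruction and so free the dimers to enter the nucleus, where they drive cytokine, chemokine, adhesion and survival genes together with several of their own subunits and inhibitors. In tumor-infiltrating leukocytes the pathway is best known for inflammatory output of myeloid cells, maturation of dendritic cells and activation of lymphocytes.

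TSA mammary adenocarcinoma cells, a transplantable BALB/c line, had been injected subcutaneously into Balb/c mice, and treatment was allocated once lesions measured 0.25 cm2. One group was left untreated, and the other received nicotinamide (NAM), an amide of the vitamin niacin, dissolved at 0.5% in its drinking water for 10 days. Tumors of 3 mice per group were dissociated and pooled, CD45+ leukocytes were separated with magnetic beads, and 1 droplet-based 3′ single-cell RNAseq library was made per pool. All mice thus carried the same tumor line and strain background, the mice of the study were female according to its methods, and no engineered allele was given for these groups.

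The untreated library held 2922 cells and 29161823 transcript molecules (unique molecular identifiers, UMIs), and the NAM library 3276 cells and 32090120 UMIs, with medians of 9056 and 9128 UMIs per cell. Because each group was 1 library, no difference below has a replicate check or a p-value, and an effect of NAM cannot be told apart from a difference between pools of mice or between library preparations. Levels are UMIs per 1000000 UMIs of the same cells (CPM), with exact Poisson 95% intervals. Differences are log2 ratios of NAM over untreated with exact binomial 95% intervals. Both kinds of interval cover counting error only. The libraries shared 11 cell barcodes, and leaving those cells out kept all 43 member ratios with enough UMIs within their intervals.

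Marker transcripts placed 1919 untreated and 2140 NAM cells as macrophages (65.7% and 65.3% of each library), 160 and 184 as Ly6c2 monocytes, 88 and 95 as dendritic cells, 201 and 262 as T cells, and 63 and 37 as NK cells. A further 140 and 157 cells had high osteoclast markers (Ctsk, Acp5 and Mmp9), and 12.0% and 12.2% of cells met no gate. The B-cell markers Cd79a and Ms4a1 were at 0 UMIs in monocytes, dendritic cells, T cells and NK cells of both libraries. Summed complement C1q transcripts, which macrophages make, reached 17705 and 19455 CPM in macrophages and 404 and 426 CPM in T cells, so that macrophage RNA was present in T cells of both libraries, although their gate had limited it.

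Promoter sequences are shown for 5 of the genes, since several NF-kB components are themselves controlled by NF-kB. RefSeq start-site windows of GRCm38.p6, the same assembly as the mm10 build of the count tables, were found for 7 of the 10 genes (Nfkb2, Rela, Rel, Nfkbia, Tnfaip3, Bcl3 and Icam1), and no entry was found for Nfkb1, Relb and Nfkbiz. The 300-base windows were searched on both strands for the degenerate kappa B consensus of 10 letters, and overlapping matches were counted as 1 stretch. A match was present in 7 of 10 windows, belonging to 5 of the 7 genes, whereas 4.51% of 32851 windows and 5.14% of 27025 genes in the whole table held one. The stretches below run 5′ to 3′ on the strand of the gene and end at the base before the start site, except for Bcl3, which continues 20 bases beyond it. Capitals mark the consensus matches.
Nfkb2, chr19:46304607-46304736, forward strand: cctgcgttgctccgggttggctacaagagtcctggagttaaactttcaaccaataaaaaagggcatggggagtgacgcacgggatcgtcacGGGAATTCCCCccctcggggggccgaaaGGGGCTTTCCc
Rel, chr11:23770970-23771099, reverse strand: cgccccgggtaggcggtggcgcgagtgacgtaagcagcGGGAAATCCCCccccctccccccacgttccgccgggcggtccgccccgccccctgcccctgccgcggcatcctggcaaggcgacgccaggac
Nfkbia, chr12:55492648-55492777, reverse strand: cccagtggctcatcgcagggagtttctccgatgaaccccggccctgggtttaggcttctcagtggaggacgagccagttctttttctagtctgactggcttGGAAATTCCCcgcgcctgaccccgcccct
Tnfaip3, chr10:19015411-19015540, reverse strand: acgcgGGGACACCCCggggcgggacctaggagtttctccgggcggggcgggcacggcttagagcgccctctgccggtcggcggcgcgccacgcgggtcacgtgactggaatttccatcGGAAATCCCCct
Bcl3, chr7:19822736-19822885, reverse strand: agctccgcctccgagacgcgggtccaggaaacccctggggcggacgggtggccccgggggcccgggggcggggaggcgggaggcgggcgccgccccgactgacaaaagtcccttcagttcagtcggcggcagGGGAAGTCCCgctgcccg

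In the first Nfkb2 window the matches began 39 and 11 bases before the start site, in Rel 92 bases before it, in Nfkbia 29 bases before it, and in Tnfaip3 125 and 12 bases before it. No match was found in the windows of Rela and Icam1. These are matches of letters only, and no binding was measured in this dataset.

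The question addressed by the comparison was how leukocytes of NAM-treated tumors differed from those of untreated tumors. Among the 10 genes, Nfkb1 was lower in the NAM library across nearly every cell group, whereas of the other 9 genes 6 were lower by 1.3-fold or more in Ly6c2 monocytes, 8 in dendritic cells, 1 in T cells and none in macrophages. Bcl3 had a counting interval holding 0 in all 5 cell classes. In macrophages, 1 of the 10 genes (Nfkb1) was lower by 1.3-fold or more and none was higher, against 9.76% and 3.44% of the 9721 genes with at least 100 UMIs. In Ly6c2 monocytes 7 of 10 were lower and none higher, against 14.2% and 10.4% of all such genes. In dendritic cells 9 of 10 were lower and none higher, against 13.8% and 12.3%. Mature cells were 39 of the 88 untreated but 25 of the 95 NAM dendritic cells. With each dendritic type weighing the same, 6 of 10 were lower, against 14.3%. In T cells 2 of 10 were lower (Nfkb1 and Nfkb2) and none higher, against 10.6% and 11.5%. In the class of the highest marker score, where each cell went to the class whose markers it scored highest, Nfkb2 in T cells was at -0.23 and 1 of 10 was lower, against 9.14%. Regulatory-like cells were 82 of the 201 untreated but 83 of the 262 NAM T cells. Equal weight of the 3 T-cell subsets gave 5 of 10, against 14.6%. In NK cells 1 of the 3 genes with enough UMIs was lower (Nfkb1) and none higher, against 9.23% and 12.3%.

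The median log2 ratio of the 10 genes was -0.15 in macrophages, beside -0.03 over all genes with enough UMIs. It was -0.53 in Ly6c2 monocytes, beside -0.01, and -0.68 in dendritic cells, beside 0.04. T cells had a median of -0.18, beside 0.05. The monocyte count rested on how monocytes were delimited: when each cell was instead assigned to the class of its highest marker score, which put 489 and 560 cells in this class, 2 of 10 genes were lower (Nfkb1 at -1.12 and Icam1 at -0.44), against 11.4% of all genes, and the median was -0.23. The 5 genes that no longer passed were Nfkb2 at -0.38, just short of 1.3-fold, Rel at 0.01, Relb at -0.22, Nfkbia at -0.26 and Nfkbiz at -0.17. Stricter gates, with 103 and 111 monocytes, left 6 of 8 measured genes lower, against 14.5% of all genes. Thinning each monocyte to 3000 UMIs also left 6 of 8 lower, against 12.1%. The marker-score assignment left 5 of 10 genes lower in dendritic cells, against 10.7% of all genes.

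**Figure D1:**
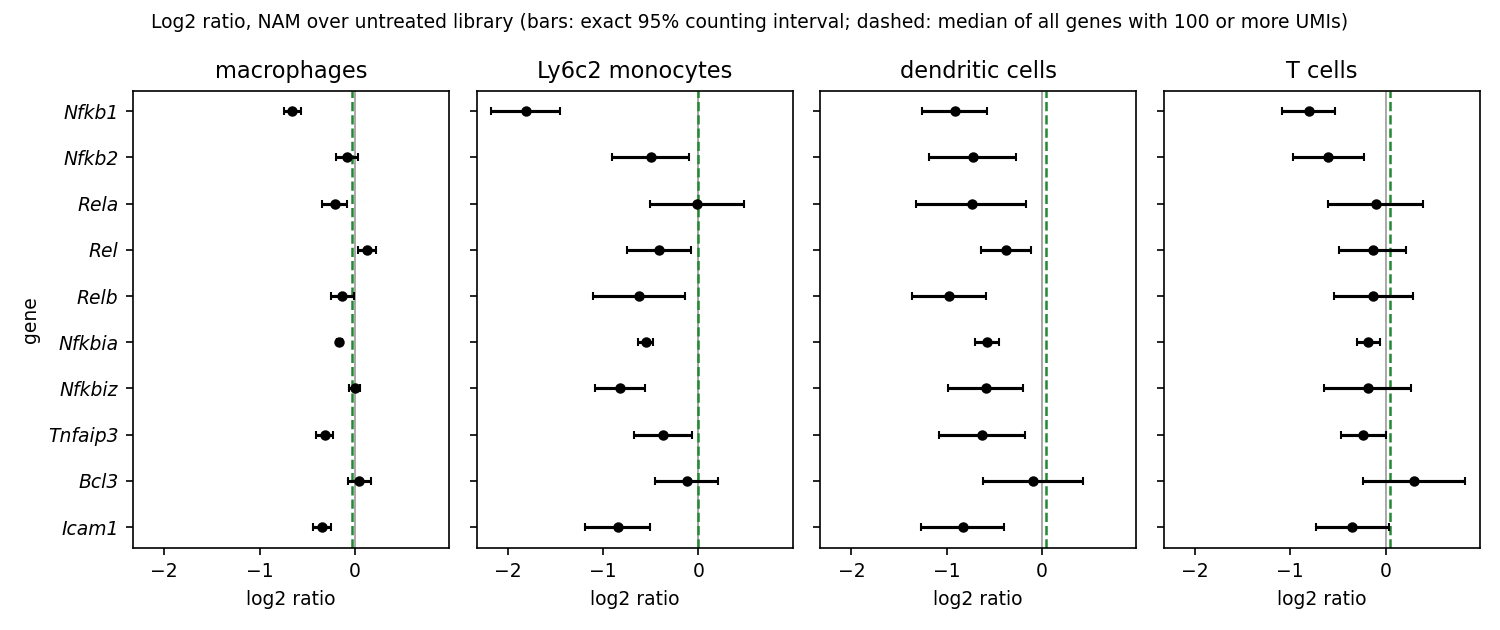
Log2 ratio of each gene, NAM over untreated library, in 4 cell classes, with points for the ratio, bars for the exact 95% counting interval and a dashed line for the median of all genes with 100 or more UMIs. Points for monocytes and dendritic cells lie mostly to the left of the dashed line, and in macrophages only Nfkb1 lies below -0.38, the 1.3-fold mark.

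Nfkb1 encodes p105, which is processed to p50, the DNA-binding partner of RelA in the classical dimer, and lies on the reverse strand at chr3:135584655-135691547. Over all cells its level was 139 CPM in the untreated library and 81.5 CPM in the NAM library, a log2 ratio of -0.77 (-0.84 to -0.70). In macrophages it was 128 CPM (123 to 133) and 81.1 CPM (77.4 to 85.0), a ratio of -0.66 (-0.74 to -0.57). In Ly6c2 monocytes 287 UMIs gave 273 CPM (243 to 307) in the untreated library and 84 UMIs gave 78.0 CPM (62.2 to 96.6) in the NAM library, a ratio of -1.81 (-2.18 to -1.45). The intervals of the libraries did not meet in either class. In monocytes 0.197% of the 2534 genes had a ratio as low or lower, and in macrophages 3.07% of the 9721. The share was 2.43% in dendritic cells, 2.17% in T cells and 3.89% in NK cells. With every cell thinned to 3000 UMIs, 48.1% of untreated and 19.0% of NAM monocytes retained an Nfkb1 UMI (73.1% and 37.0% before thinning). C1qa, a macrophage transcript, had a thinned share of 46.2% and 44.0% in these monocytes, but their gate had capped C1q, so these shares do not show whether free RNA was alike in the libraries.

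In dendritic cells as a whole Nfkb1 stood at 209 CPM and 111 CPM (-0.92, -1.26 to -0.58), in T cells at 231 CPM and 132 CPM (-0.81, -1.09 to -0.53), and in NK cells at 216 CPM and 131 CPM (-0.72, -1.43 to -0.05). Across the 13 finer gates the ratio was below 0 in 13 and its interval lay below 0 in 12. Mature dendritic cells, marked by Ccr7 and Fscn1, were the exception, with 280 CPM in each library (-0.00, -0.50 to 0.47) from 39 untreated and 25 NAM cells. The lowest ratio of the 13 gates was that of other CD8-negative T cells, at 210 CPM from 20 UMIs and 48.7 CPM from 6 UMIs (-2.11, -3.71 to -0.74). Type 1 dendritic cells (Xcr1 and Clec9a) stood at 83.5 CPM and 41.3 CPM (-1.02, -1.93 to -0.13), and Cd209a dendritic cells at 262 CPM and 113 CPM (-1.22, -1.85 to -0.61). Of the 4 macrophage subsets described here, which do not make up the whole class, the lowest ratio was that of the Vcam1 Dnase1l3 subset, at 159 CPM and 87.0 CPM (-0.87, -1.06 to -0.69), and the closest to 0 that of the proliferating subset, at 119 CPM and 83.3 CPM (-0.51, -0.74 to -0.28). Whether the ratio differed between gates was not tested, as no gate had a second library.

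In the untreated library the order of Nfkb1 levels was led by mature dendritic cells at 280 CPM, regulatory-like T cells at 278 CPM, Ly6c2 monocytes at 273 CPM and Cd209a dendritic cells at 262 CPM, whose intervals overlapped. NK cells, other CD8-negative T cells and CD8 T cells followed at 216, 210 and 189 CPM, again with overlapping intervals. The same 4 macrophage subsets lay between 107 and 159 CPM, osteoclast-like cells at 93.6 CPM and type 1 dendritic cells at 83.5 CPM. In the NAM library monocytes were not among the leading gates, and their 78.0 CPM lay inside the range of those 4 subsets, 69.0 to 87.0 CPM.

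**Figure D2:**
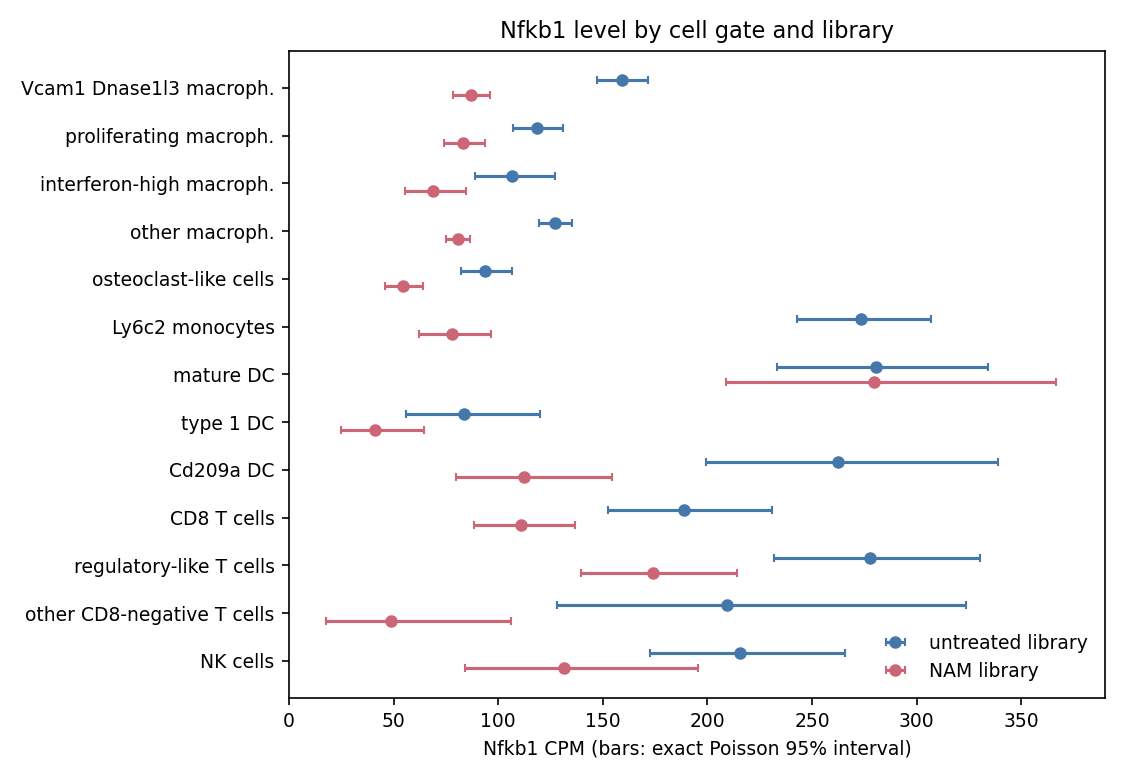
Nfkb1 level in each of the 13 gates, in CPM, with blue points for the untreated library, red points for the NAM library and bars for exact Poisson 95% intervals (DC, dendritic cells). The red point is to the left in all gates but mature dendritic cells, where both lie at 280, and the widest gap in CPM is in Ly6c2 monocytes.

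Nfkb1 was 1 of 12 genes that were lower by 1.3-fold or more in all 5 classes, out of 746 genes with at least 100 UMIs in each, while 0 genes were higher in all 5. The others, which were listed after their values were seen, were Actb, Alyref, Erdr1, Gm10076, Gm42418, Kdm6b, Rps27rt, Rps28, Serinc3, Taf10 and mt-Nd3. They include genes of ribosomal proteins, a mitochondrial gene and gene models named only by number. A difference between library preparations and an effect of NAM cannot be told apart for such genes, Nfkb1 among them.

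Rela, which encodes the main transactivating subunit p65, lies on the forward strand at chr19:5637483-5648130. Its level in macrophages was 51.0 CPM (47.9 to 54.2) in the untreated library and 44.0 CPM (41.3 to 46.9) in the NAM library, a ratio of -0.21 (-0.34 to -0.08). Monocytes had 68.6 CPM and 67.8 CPM (-0.02, -0.51 to 0.47), so that no difference of Rela was detectable at this depth in the gate where Nfkb1 had a ratio of -1.81. In Cd209a dendritic cells Rela was at 104 CPM from 23 UMIs and at 41.5 CPM from 14 UMIs (-1.33, -2.40 to -0.31). The interval also lay below 0 in the Vcam1 Dnase1l3 and the other macrophages, and it held 0 in the remaining 10 gates.

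Rel encodes c-Rel, a subunit prominent in lymphocytes and dendritic cells, and lies on the reverse strand at chr11:23736847-23770970. It was slightly higher in the NAM library in macrophages, at 83.3 CPM (79.3 to 87.4) and 90.7 CPM (86.8 to 94.7), a ratio of 0.12 (0.03 to 0.22). With every macrophage thinned to 3000 UMIs this ratio was -0.03. In monocytes Rel was lower, at 162 CPM and 122 CPM (-0.41, -0.75 to -0.07), although 0.01 was obtained for the class of the highest marker score. The dendritic class gave 276 CPM and 212 CPM (-0.38, -0.64 to -0.11), but the 3 dendritic types taken singly gave -0.13 (-0.53 to 0.25) in mature, 0.26 (-0.37 to 0.90) in type 1 and 0.31 (-0.26 to 0.91) in Cd209a cells. Mature dendritic cells had the highest Rel level of all gates, 460 CPM and 419 CPM, and made up 39 of 88 untreated but 25 of 95 NAM dendritic cells.

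Nfkb2 and Relb form the alternative branch, in which p100, the product of Nfkb2, is processed to p52 and pairs with RelB. Nfkb2, on the forward strand at chr19:46304320-46312385, stood at 57.2 CPM and 54.0 CPM in macrophages (-0.08, -0.20 to 0.04). In monocytes it was at 118 CPM (98.2 to 141) and 83.6 CPM (67.2 to 103), a ratio of -0.50 (-0.91 to -0.10). Among T cells the regulatory-like gate was at 167 CPM (132 to 209) and 82.1 CPM (59.2 to 111), a ratio of -1.02 (-1.60 to -0.46), while CD8 T cells gave 88.3 CPM and 79.8 CPM (-0.15, -0.73 to 0.44) and other CD8-negative T cells 83.8 CPM and 73.0 CPM (-0.20, -1.75 to 1.38). The intervals of the 3 T-cell gates overlapped, and a difference between them was not tested. Monocytes and regulatory-like T cells were the 2 gates whose interval lay below 0, and it held 0 in the other 11.

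Relb, on the reverse strand at chr7:19606217-19629438, marked mature dendritic cells, with 310 CPM (260 to 366) in the untreated library and 290 CPM (218 to 379) in the NAM library, a ratio of -0.09 (-0.57 to 0.37). The next gate over both libraries was regulatory-like T cells, at 92.6 CPM against 304 CPM in mature dendritic cells. Over the dendritic class Relb was 170 CPM and 86.4 CPM (-0.97, -1.37 to -0.59). Giving each dendritic type the same weight, an alternative chosen after seeing the data, moved this ratio to -0.47 and that of Nfkb2 from -0.72 to -0.20. In monocytes Relb was at 88.6 CPM and 57.6 CPM (-0.62, -1.11 to -0.14), and in NK cells at 102 CPM from 41 UMIs and 43.8 CPM from 8 UMIs (-1.22, -2.52 to -0.10).

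**Figure D3:**
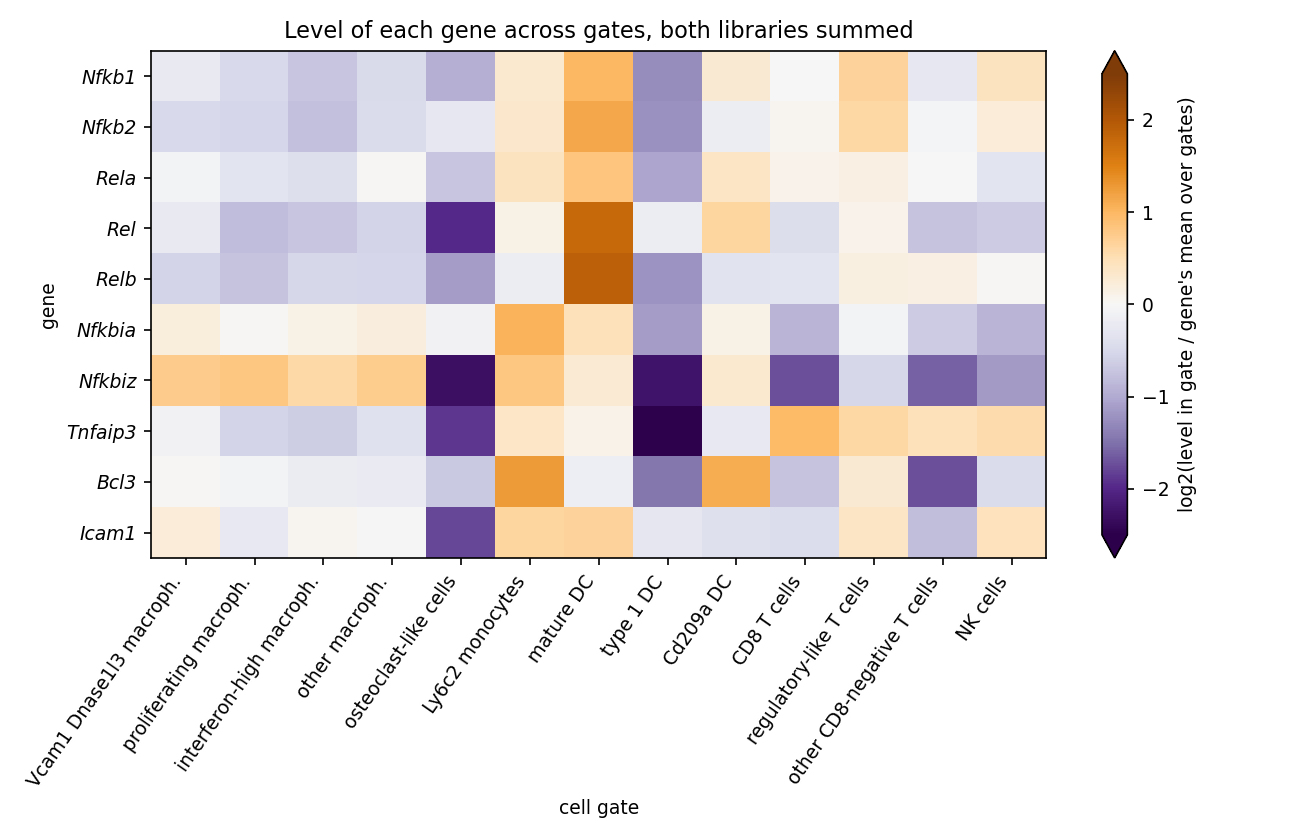
Level of each gene in each gate over both libraries, as the log2 of the level divided by the mean of that gene over the 13 gates (DC, dendritic cells). Mature dendritic cells are the darkest orange for Rel and Relb, Ly6c2 monocytes lead for Nfkbia and Bcl3, and type 1 dendritic and osteoclast-like cells are low for most genes.

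Nfkbia encodes IkB alpha, the inhibitor that NF-kB itself induces and that returns the dimers to the cytoplasm. The gene lies on the reverse strand at chr12:55489410-55492647. In macrophages, where 28770 and 28827 UMIs were counted, it stood at 1449 CPM and 1295 CPM, a ratio of -0.16 (-0.19 to -0.14). Monocytes had the highest level of all gates, 2959 CPM in the untreated library and 2016 CPM in the NAM library, a ratio of -0.55 (-0.63 to -0.47). These intervals left out 0, yet the macrophage difference was below 1.3-fold.

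The direction of Nfkbia was not uniform among gates, with intervals below 0 in 8, above 0 in 2 and holding 0 in 3. It was lower in the NAM library in type 1 dendritic cells, at 688 CPM and 456 CPM (-0.59, -0.87 to -0.32), and in Cd209a dendritic cells, at 1623 CPM and 1111 CPM (-0.55, -0.76 to -0.33). In mature dendritic cells 1694 CPM and 1592 CPM were measured (-0.09, -0.29 to 0.11). T cells split: regulatory-like T cells had 1382 CPM and 947 CPM (-0.55, -0.72 to -0.37), whereas CD8 T cells had 564 CPM and 713 CPM (0.34, 0.13 to 0.55). Interferon-high macrophages, set by Rsad2, Ifit3, Ifit1 and Isg15, were also higher, at 1209 CPM and 1424 CPM (0.24, 0.14 to 0.34). Whether the gates differed from one another was not tested.

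Nfkbiz encodes IkB zeta, a nuclear protein needed for a secondary wave of cytokine genes, and lies on the reverse strand at chr16:55811375-55838899. Its level in macrophages was the same in both libraries to within counting error, 227 CPM in each (-0.00, -0.06 to 0.06). In monocytes it was 314 CPM (281 to 350) and 177 CPM (153 to 204), a ratio of -0.82 (-1.09 to -0.56), which became -0.17, within 1.3-fold, for the class of the highest marker score. Within macrophages the proliferating subset was higher in the NAM library, at 225 CPM and 266 CPM (0.24, 0.10 to 0.39), as was the interferon-high subset, at 176 CPM and 239 CPM (0.44, 0.18 to 0.70), while the Vcam1 Dnase1l3 subset was lower, at 253 CPM and 221 CPM (-0.19, -0.32 to -0.07). Mature dendritic cells gave 195 CPM from 87 UMIs and 102 CPM from 19 UMIs (-0.93, -1.73 to -0.21), the only member whose interval left out 0 in that gate. Osteoclast-like cells, at 28.6 CPM over both libraries, had the lowest Nfkbiz level of the 13 gates.

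Tnfaip3 encodes A20, a ubiquitin-editing enzyme that dampens signaling upstream of IKK, and lies on the reverse strand at chr10:19000910-19015657. In macrophages it was 120 CPM (115 to 125) in the untreated library and 96.3 CPM (92.2 to 100.4) in the NAM library, a ratio of -0.32 (-0.40 to -0.23). In monocytes it was 198 CPM and 153 CPM (-0.37, -0.67 to -0.07), just short of 1.3-fold. CD8 T cells had the highest level of the 13 gates, 291 CPM and 256 CPM (-0.19, -0.50 to 0.13). Across gates its interval lay below 0 in 3 macrophage subsets and in monocytes and held 0 in the other 9.

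Bcl3 encodes an atypical IkB protein that binds p50 and p52 homodimers in the nucleus, and lies on the reverse strand at chr7:19808462-19822770. The interval held 0 in 12 of 13 gates. Macrophages had 53.7 CPM and 55.5 CPM (0.05, -0.07 to 0.17), and monocytes, with the highest level, 151 CPM and 139 CPM (-0.12, -0.45 to 0.21). The 1 gate outside was regulatory-like T cells, at 54.2 CPM from 25 UMIs and 91.9 CPM from 47 UMIs (0.76, 0.03 to 1.52). Nfkb2 and Nfkbia were lower in this gate, while the Bcl3 interval only just left out 0. The intervals are not corrected for the number of genes and gates compared.

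Icam1 encodes the ligand of leukocyte integrin LFA-1 and lies on the forward strand at chr9:21015985-21028817. In macrophages it was 103 CPM (98.7 to 108) and 81.2 CPM (77.5 to 85.1), a ratio of -0.34 (-0.44 to -0.25). In monocytes it was 191 CPM (165 to 219) and 106 CPM (87.4 to 127), a ratio of -0.85 (-1.19 to -0.51). Type 1 dendritic cells had 107 CPM and 56.5 CPM (-0.92, -1.70 to -0.15), Cd209a dendritic cells 104 CPM and 53.3 CPM (-0.96, -1.94 to -0.01), and CD8 T cells 92.4 CPM and 56.6 CPM (-0.71, -1.34 to -0.08). The ratio was below 0 in 12 of 13 gates and its interval was below 0 in 6. NK cells were the single gate above 0, at 119 CPM and 153 CPM (0.36, -0.36 to 1.07).

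**Figure D4:**
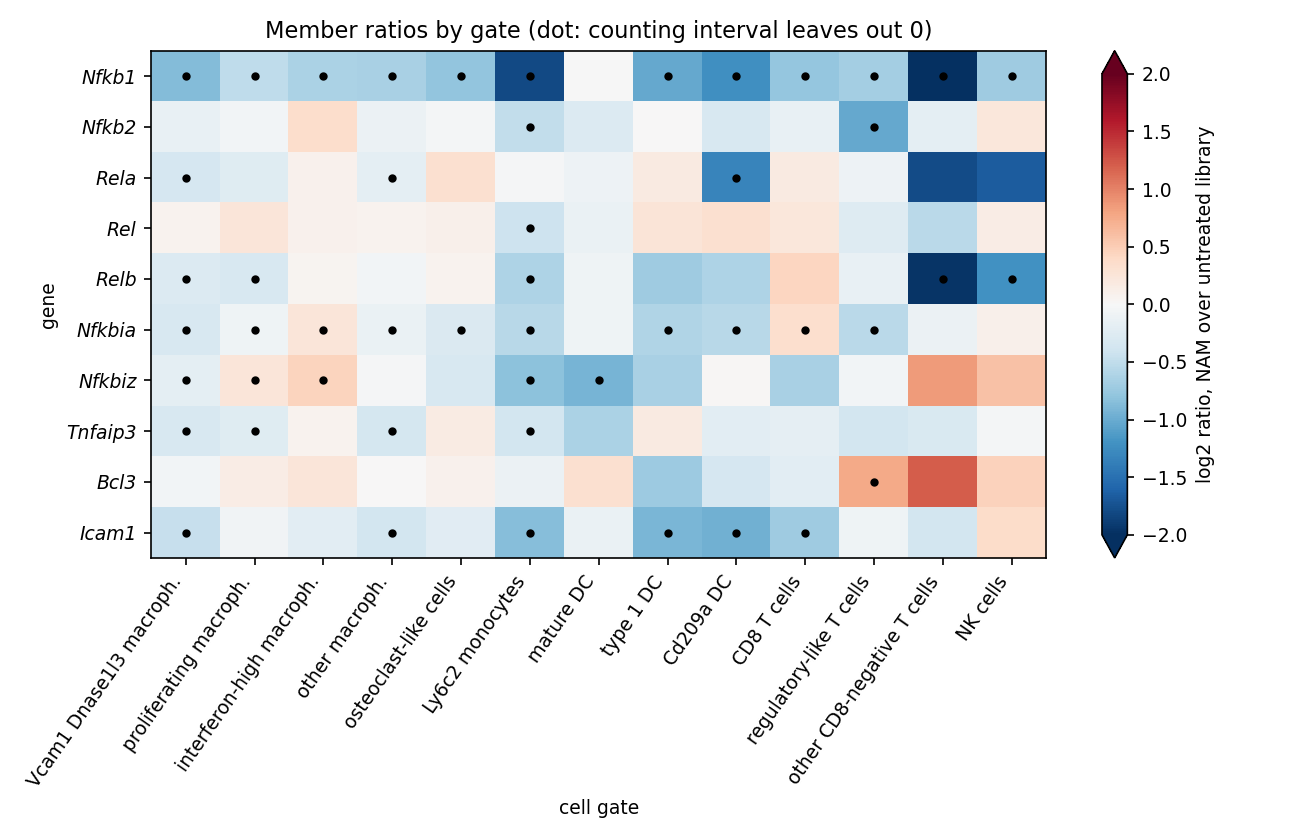
Log2 ratio of NAM over untreated library for the 10 genes in 13 gates, blue for lower and red for higher in the NAM library, with a dot where the 95% counting interval leaves out 0 (DC, dendritic cells). The Nfkb1 row is blue with a dot in 12 gates, and the monocyte column has a dot for 8 of 10 genes.

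The monocyte and dendritic results were set beside the makeup of those gates. In monocytes, summed Ly6c2 and Plac8 were 7490 CPM and 7522 CPM, C1q transcripts 510 CPM and 517 CPM, and neutrophil markers (S100a8, S100a9, Csf3r and Cxcr2) 91.4 CPM and 75.3 CPM, with none of these at 0. The gate had required Ly6c2 and capped C1q, and of the markers it had not used Plac8 alone was at 3595 CPM and 3975 CPM. Median UMIs per monocyte were 5854 and 5210. In the dendritic class, summed Ccr7, Fscn1 and Ccl22, of which the gate of mature cells had used the first 2, were 1914 CPM and 1155 CPM, none at 0, beside the lower share of mature cells in the NAM library. Summed Ly6c2 and Plac8 were 1097 CPM and 776 CPM in dendritic cells and 2033 CPM and 1450 CPM in NK cells, none at 0, and their part in the ratios of these classes was not tested. When each dendritic type weighed the same, 6 of 10 genes were lower by 1.3-fold or more, against 14.3% of all genes, and the median ratio was -0.41. In T cells neutrophil markers were 16.5 CPM and 91.1 CPM and mast cell markers (Cpa3 and Mcpt4) 50.5 CPM and 9.66 CPM, and their part in the T-cell ratios was not tested.

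Other genes of the pathway were taken from fixed lists. Of 20 IKK subunits, adaptors and upstream kinases, 19 had enough UMIs in macrophages, of which 2 were lower by 1.3-fold or more, Malt1 at -0.57 (-0.91 to -0.24) and Traf6 at -0.40 (-0.69 to -0.10), and 0 were higher. These 2 of 19 were close to the 9.76% of all macrophage genes that were lower. Of the 5 with enough UMIs in monocytes 1 was lower, against 14.2% of all genes, namely the adaptor Traf1, at 253 CPM and 127 CPM (-0.99, -1.30 to -0.69). Traf1 also stands in the list of inducible targets described below and is counted in both lists. In the class of the highest marker score 2 of 14 were lower, against 11.4%, with a median of -0.18 and Traf1 at -0.43. Stricter gates left 3 of 5 lower, against 14.5%, with Traf1 at -0.92, Myd88 at -0.58 and Irak2 at -0.52. In dendritic cells 3 of 6 were lower, against 13.8% of all genes, among them Traf1 at -0.78 and Map3k14, the kinase of the alternative branch, at -0.75. With each dendritic type weighing the same 1 of 6 was lower, against 14.3%, and Traf1 was at -0.31 and Map3k14 at -0.16. In T cells 0 of 3 passed in either direction. The median ratio of the list was -0.18 in macrophages, -0.32 in monocytes, -0.35 in dendritic cells and 0.02 in T cells.

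Of 17 further IkB proteins and feedback regulators, 16 had enough UMIs in macrophages, with 2 lower and 0 higher, against 9.76% and 3.44% of all genes, and a median ratio of -0.02. These were Otulin, a deubiquitinase of linear chains, at 54.5 CPM and 31.0 CPM (-0.82, -0.95 to -0.68), and Tnip1, a partner of A20, at 41.7 CPM and 27.6 CPM (-0.60, -0.75 to -0.44). In monocytes 4 of 9 were lower and 1 higher, against 14.2% and 10.4% of all genes, with a median of -0.35, led by Tnip1 at 108 CPM and 39.0 CPM (-1.46, -2.01 to -0.94) and Nfkbib, which encodes IkB beta, at 257 CPM and 149 CPM (-0.79, -1.08 to -0.50). In the class of the highest marker score these were at -0.93 and -0.36, and 4 of 15 were lower, against 11.4%. T cells had 3 of 9 lower and 0 higher, against 10.6% and 11.5% of all genes, with a median of -0.16, among them Otulin at -0.98, Tnip1 at -0.61 and Cyld at -0.57. In dendritic cells 2 of 4 were lower, Nfkbie at -0.66 and Tnip3 at -0.48, against 13.8% of all genes. With each dendritic type weighing the same 1 of 4 was lower (Nfkbie at -0.40, Tnip3 at -0.27), against 14.3%.

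Inducible cytokine, chemokine and survival genes, many of them known targets of NF-kB, were taken as a list of 30. In monocytes 17 of the 26 measured were lower by 1.3-fold or more and 1 was higher, against 14.2% and 10.4% of all genes, and their median ratio was -0.67. The lowest ratios were those of Il1a, at 410 CPM and 107 CPM (-1.94, -2.25 to -1.64), Ccl3, at 652 CPM and 210 CPM (-1.64, -1.86 to -1.42), and Cxcl1, at 1540 CPM and 576 CPM (-1.42, -1.55 to -1.28). Tnf in monocytes had a ratio of -0.15 and Il1b one of -0.31, neither past 1.3-fold. In the class of the highest marker score 11 of 28 targets were lower and 2 higher, against 11.4% and 6.50% of all genes, with a median of -0.29, and Il1a was at -1.30, Ccl3 at -0.57 and Cxcl1 at -1.41. In macrophages 5 of 28 targets were lower and 2 higher, against 9.76% and 3.44% of all genes, with a median of -0.08.

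Within macrophages Cxcl1, a neutrophil-attracting chemokine, was at 722 CPM and 329 CPM (-1.13, -1.17 to -1.09) and Cxcl3 at 18.9 CPM and 5.80 CPM (-1.70, -2.00 to -1.41). Conversely Tnf was higher in the NAM library, at 189 CPM and 250 CPM (0.40, 0.34 to 0.46), and Il12b, a subunit of interleukin 12, at 2.22 CPM from 44 UMIs and 4.49 CPM from 100 UMIs (1.02, 0.49 to 1.57). With each cell weighing the same 6 of 28 targets were lower and 0 higher, against 11.0% and 3.98%, and Tnf was at 0.30 and Il12b at 0.10, both within 1.3-fold. In dendritic cells 11 of 23 were lower and 0 higher (median -0.37), against 13.8% and 12.3% of all genes, with Cxcl1 at 450 CPM and 67.1 CPM (-2.75, -3.14 to -2.37) and Il12b at 256 CPM and 105 CPM (-1.29, -1.64 to -0.96). With each dendritic type weighing the same 7 of 21 were lower and 1 higher (median -0.25), against 14.3% and 9.45%. In T cells 6 of 17 were lower and 0 higher (median -0.30), against 10.6% and 11.5% of all genes, led by Ccl3 at 460 CPM and 123 CPM (-1.91, -2.16 to -1.66). In the class of the highest marker score 4 of 21 were lower and 2 higher in T cells (median -0.06), against 9.14% and 9.78%, and Ccl3 was at -1.81. In NK cells 1 of 3 was lower, Ltb at -0.50 (-0.87 to -0.15), and 0 were higher, against 9.23% and 12.3% of all genes. The marker-score class of NK cells was a wider set, with 170 and 189 cells beside 63 and 37 in the gate. In that class 4 of 23 were lower and 8 higher (median 0.29), against 12.8% and 9.14%, and Ltb was at -0.93. The 8 were Tnf, Il1b, Ccl3, Ccrl2, Ier3, Cd40, Plaur and Socs3, and from which of its cells they came was not tested.

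**Figure D5:**
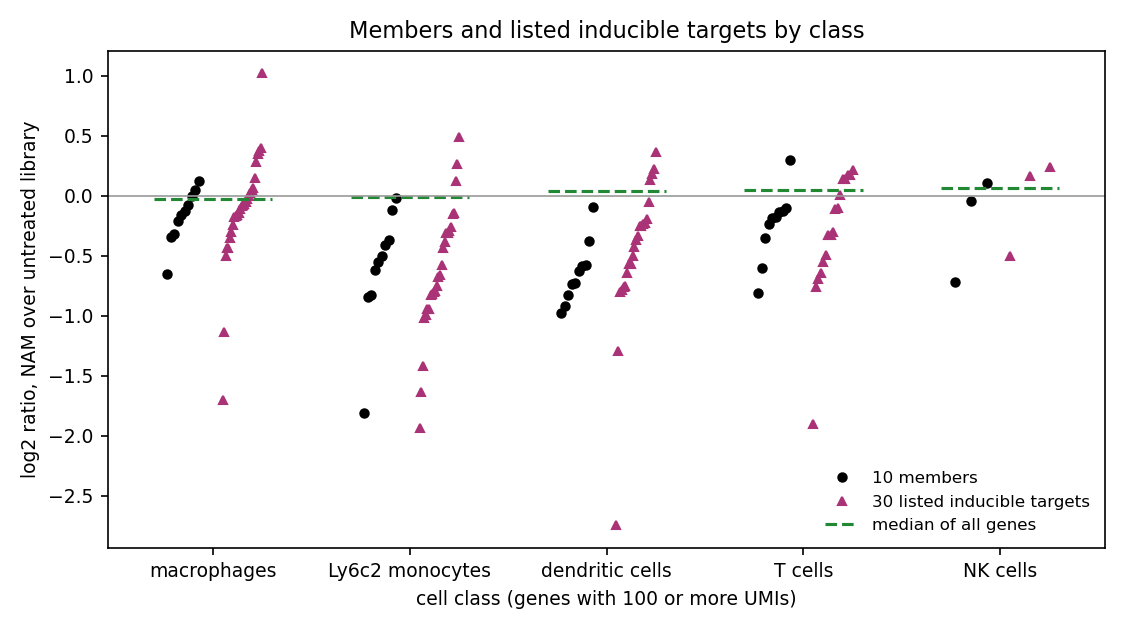
Log2 ratio of NAM over untreated library, with 1 point per gene with 100 or more UMIs in the class, circles for the 10 members, triangles for the 30 listed inducible targets and a dashed line for the median of all genes. The cloud of triangles in Ly6c2 monocytes is centered at -0.67, while in macrophages it is centered at -0.08 and reaches from -1.70 to 1.02.

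Immediate-early and heat-shock genes, which tissue dissociation can induce, also differed between the libraries. In macrophages 7 of 18 were lower and 1 higher by 1.3-fold or more, against 9.76% and 3.44% of all genes, with Hspa1a at 1107 CPM and 384 CPM (-1.53, -1.56 to -1.49) and Egr1 at 101 CPM and 142 CPM (0.49, 0.41 to 0.57). T cells had 6 of 14 lower and 0 higher (Hspa1a at -2.94), against 10.6% and 11.5% of all genes, and NK cells 5 of 11 lower and 0 higher (Hspa1a at -3.11), against 9.23% and 12.3%. The wider marker-score class of NK cells, of 170 and 189 cells, had 7 of 17 lower and 4 higher (Fos, Fosb, Atf3 and Dusp1), against 12.8% and 9.14%. Hspa1a was at -0.99 in that class. Stricter gates of NK cells left 3 of 10 lower, against 10.4%. Dendritic cells had 4 of 16 lower and 1 higher, against 13.8% and 12.3%. With each cell weighing the same 7 of 16 were lower, against 13.8%, and with each dendritic type weighing the same 6 of 16, against 14.3%. In monocytes 0 of 15 were lower and 3 higher, namely Atf3 (0.60, 0.34 to 0.86), Fosb (0.47, 0.17 to 0.77) and Junb (0.44, 0.35 to 0.52), against 14.2% and 10.4% of all genes. In the class of the highest marker score 6 of 18 were lower and 1 higher, against 11.4% and 6.50%. The part of these genes in the NF-kB differences was not tested.

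Likeness of pattern was described over 26 points, the 13 gates in 2 libraries, which share libraries and differ in depth, as the Pearson correlation of log2(CPM + 10) among 7379 genes. The genes most like Nfkb1 were AU019823 (r = 0.783), Relb (r = 0.781) and Gadd45b (r = 0.775). Those most like Relb were Itga4 (r = 0.877), Tmem123 (r = 0.870) and Pcgf5 (r = 0.837), each highest in mature dendritic cells, and Tmem123 is among the markers listed for those cells. Those most like Nfkbia were Adora2b (r = 0.876), Ehd1 (r = 0.861) and Plaur (r = 0.861), each highest in Ly6c2 monocytes. Between members, r ranged from 0.0700 for Nfkb2 and Nfkbiz to 0.781 for Nfkb1 and Relb.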

How the data were processed

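The deposited values were raw UMI counts, which the authors had obtained for every gene in every cell with Cell Ranger (mm10, 10x 3′ chemistry); the deposited cells, at 3001 or more UMIs each, already met the 3000-UMI minimum of the methods. The gene annotation version was not given in the sources used here. Counting was by UMI at the 3′ end, so levels were not scaled for length. Cells were gated on marker UMIs, with thresholds set on marker UMIs alone (at least 3 UMIs of Cd3d, Cd3e and Cd3g for T cells, at least 3 of Ly6c2 with C1q under 20 per 10000 UMIs for monocytes, C1q at 50 or more per 10000 for macrophages, at least 5 of Ccr7 and Fscn1 for mature dendritic cells), after the tables had been seen. No doublet caller was run, but gates with lymphoid markers required a low myeloid load. A macrophage subset is not reported here, and its cells entered the macrophage class only. Counts were summed per gate and library. Since each group was a single library, no p-value was computed, and intervals are exact Poisson for CPM, exact conditional binomial for ratios and exact Clopper-Pearson for shares. Genes with 100 or more UMIs over both libraries of a class entered counts and medians, and 1.3-fold was the mark. Named genes of the lists had at least 100 UMIs, a 1.3-fold difference and an interval leaving out 0, at most 6 per list and class, and values of Tnf and Il1b were added after being seen. The members, lists and tests were chosen with earlier results of these data known. Alternatives were other scaling, stricter gates, marker-score classes, thinning to 3000 UMIs, equal weights, left-out cells and other minimums, of which those run on the pathway lists were added after seeing the data. Interval code was tested on simulated counts drawn from the Poisson model that the intervals assume, without clustering of UMIs in cells. That check covers the code and does not show how well the intervals hold for these data. Python 3.11.15, numpy 2.4.6, scipy 1.17.1, pandas 2.3.3 and matplotlib 3.10.9 were used. Gene positions are from GENCODE (GRCm38) and promoters from RefSeq.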

Additional observations from a re-analysis of the deposited data

Results flagged for a closer look

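Rel, which encodes c-Rel, was the single gene of the 10 whose counting intervals lay on opposite sides of 0 in different classes. Its log2 ratio of NAM over untreated was 0.12 in macrophages, -0.41 in Ly6c2 monocytes and -0.38 in dendritic cells. The difference between classes was not tested, as each class had 1 library per group. Within the dendritic class the 3 types taken singly each had an interval holding 0. Each of the 3 signs also turned under an alternative. Rel was at -0.028 in macrophages with thinning and at 0.012 in monocytes for the class of the highest marker score. It was at 0.15 in dendritic cells with each type weighing the same.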

How the results depend on the processing

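Of 374 alternative values for 43 member ratios, 339 stayed within the original interval, 31 moved outside it and 4 reversed, meaning that a ratio whose interval left out 0 changed sign. The 4 all concerned Rel: -0.028 in macrophages and 0.038 in dendritic cells with cells thinned to 3000 UMIs, 0.012 in monocytes for the class of the highest marker score, and 0.15 in dendritic cells with each type weighing the same. Of the 31, 3 changed sign from a ratio whose interval held 0: Nfkbiz in macrophages to 0.12 with equal weight of subsets, Nfkbiz in T cells to 0.35 with thinning, and Nfkbia in NK cells to -0.25 for the class of the highest marker score. Nfkb1 stayed below 0 in macrophages (-0.76 to -0.60), monocytes (-2.02 to -1.12), dendritic cells (-1.08 to -0.74) and T cells (-1.18 to -0.65) in every alternative. Under marker-score classes the number of genes lower by the fold became 2 of 10 in macrophages (10.0% of all genes) and 2 of 10 in monocytes (median -0.23, against 11.4%). It became 5 of 10 in dendritic cells (median -0.38, against 10.7%), 1 of 10 in T cells (9.14%) and 2 of 10 in NK cells (12.8%). Outside dendritic cells these counts lay near the shares of all genes. The NK class then held 170 and 189 cells, beside 63 and 37 in the gate. Thinning gave 2 of 10 in macrophages (10.6%), 2 of 3 in dendritic cells (median -0.53; 10.3%) and 0 of 1 in NK cells (9.71%). Equal weight per cell gave 2 of 10 in macrophages (11.0%), a median of -0.49 in dendritic cells and 1 higher gene of 10 in T cells (11.2% of all genes higher). A mark of 1.5-fold gave 4 of 10 in monocytes (6.63%). A minimum of 200 UMIs left 5 genes in dendritic cells, of which 5 were lower (11.2%), and 1 in NK cells, which was not (7.01%). Stricter gates likewise left 1 gene in NK cells, with 0 lower (10.4%), and leaving out the 5 cells with most UMIs of a gene gave 2 of 3 there (median -0.41; 9.36%). The ratio of Nfkb1 in NK cells lay between -1.41 and -0.72 in the 8 alternatives that gave it. Of the alternatives chosen after seeing the data, equal weight of dendritic types gave a median of -0.41 and equal weight of T-cell subsets, 1 of which held 18 and 25 cells, gave 5 of 10 lower and 1 higher (median -0.33), against 14.6% and 18.2% of all genes. No paired analysis was possible because each group had 1 library. Depth limits NK cells, type 1 dendritic cells and CD8-negative T cells, where many genes had under 20 UMIs per library.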
